A study of Mus musculus with 20 samples.

Results

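A set of 10 genes of the Notch pathway and of secretory fate choice were followed in jejunal epithelium of female mice after loss of the histone demethylases Kdm6a and Kdm6b. They were picked as a pathway, with earlier results of these data known, and their rows were found by gene symbol with no threshold on a measured value: the ligands Dll1, Dll4 and Jag1, the receptors Notch1 and Notch2, the receptor glycosyltransferase Lfng, the target and feedback genes Hes1 and Nrarp, and the secretory regulators Atoh1 and Gfi1. All 10 were found among the 17294 gene names measured at the acute time and among the 16195 at the prolonged time, and all 10 passed the filter on low values at both. The question was whether their RNA levels differed between control and knockout epithelium, and whether such a difference changed with time after ablation.

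The acute groups, taken 7 days after ablation, were 5 control libraries, labelled as control or wild type, and 7 libraries of the double knockout of Kdm6a and Kdm6b (DKO). The prolonged groups, taken 5 months after ablation, were 3 control and 5 DKO libraries. All 20 are poly(A) RNA-seq libraries labelled as biological replicates of intestinal epithelial cells from jejunum, and the study's design names the crypt. The recombinase, the cells in which it acts, the deleted exons and the ages of the mice are not given in the sources used here.

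Notch signalling passes between touching cells. A ligand of the Delta or Jagged family on one cell binds a Notch receptor on its neighbour, the receptor is cut by ADAM and gamma-secretase enzymes, and its intracellular part joins the DNA-binding protein RBPJ to switch on targets such as Hes1. In intestinal crypts, HES1 represses Atoh1, the transcription factor that starts the secretory programme. Cells with high Atoh1 make Delta ligands and become Paneth, goblet, enteroendocrine or tuft cells, while neighbours with active Notch stay progenitors or become absorptive. KDM6A and KDM6B remove methyl groups from lysine 27 of histone H3, a mark of repressed genes.

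Notch1 and Nrarp averaged lower in DKO libraries at both times, and Dll1 higher at the prolonged time. Their promoters are shown, and that of Lfng because of the letters it holds. They come from RefSeq with the mouse build GRCm38.p6, and each run is the 250 bases before the start of transcription, 5' to 3' on the gene's strand. Nrarp lies at chr2:25180508-25180757 (plus strand), Notch1 at chr2:26503823-26504072 (minus strand), Dll1 at chr17:15376933-15377182 (minus strand, the more upstream of 2 starts) and Lfng at chr5:140607091-140607340 (plus strand). Capitals mark letters of the RBPJ core TGGGAA, of its longer form CGTGGGAA, or of the E-box CACGTG to which HES-type repressors can bind, searched on both strands.
Nrarp: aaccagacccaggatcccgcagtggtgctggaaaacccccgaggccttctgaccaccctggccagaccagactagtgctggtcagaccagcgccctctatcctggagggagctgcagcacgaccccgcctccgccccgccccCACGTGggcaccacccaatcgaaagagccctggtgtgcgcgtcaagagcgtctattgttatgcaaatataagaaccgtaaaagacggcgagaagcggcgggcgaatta
Notch1: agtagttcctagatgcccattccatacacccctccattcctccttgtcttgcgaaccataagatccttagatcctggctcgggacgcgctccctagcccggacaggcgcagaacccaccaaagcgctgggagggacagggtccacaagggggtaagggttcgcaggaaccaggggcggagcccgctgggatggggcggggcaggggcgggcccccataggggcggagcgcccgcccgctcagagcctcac
Dll1: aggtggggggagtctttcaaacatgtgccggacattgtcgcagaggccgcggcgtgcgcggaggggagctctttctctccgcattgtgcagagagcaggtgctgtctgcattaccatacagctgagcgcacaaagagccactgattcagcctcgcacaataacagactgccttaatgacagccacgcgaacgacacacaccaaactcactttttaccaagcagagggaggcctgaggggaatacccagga
Lfng: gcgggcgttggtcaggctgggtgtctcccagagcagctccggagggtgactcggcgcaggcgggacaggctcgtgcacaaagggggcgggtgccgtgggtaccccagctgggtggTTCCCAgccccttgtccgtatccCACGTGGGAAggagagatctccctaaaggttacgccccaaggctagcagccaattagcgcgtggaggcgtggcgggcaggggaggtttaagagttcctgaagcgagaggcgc

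RefSeq promoters were matched for 9 of the 10 members and gave 11 windows of 300 bases, 250 before and 50 after the start. The Nrarp window held 1 E-box and no RBPJ core, and the Notch1 and Dll1 windows held none of these letters. In Lfng, 1 RBPJ core lay on each strand, and the plus-strand core lay inside the longer form, which overlaps the E-box. Among all 32851 promoter windows, 25.6% held the RBPJ core, 0.734% the longer form and 7.15% the E-box. Each of the 11 member windows held more CpG dinucleotides, 10 to 41, than the median window, which held 7.

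For both targeted genes, each DKO library lay below each control library of its time, as for 6.55% (acute) and 11.7% (prolonged) of tested genes. Kdm6a averaged 66.1 ± 6.62 CPM (a gene's share of the library's reads in genes, on a common scale, SD, n = 5) in acute controls and 42.6 ± 2.73 CPM (n = 7) in acute DKO libraries, and 76.2 ± 5.95 CPM (n = 3) against 49.1 ± 3.93 CPM (n = 5) at the prolonged time. Kdm6b averaged 101.3 ± 6.71 CPM against 70.4 ± 8.87 CPM at the acute time and 102.3 ± 3.85 CPM against 76.3 ± 4.98 CPM at the prolonged time. Because the deleted exons are not given, the remaining reads do not show how much intact transcript remained.

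Reads in genes numbered 15435118 to 26549494 in acute controls, 19134272 to 26586045 in acute DKO libraries, 9914738 to 23181576 in prolonged controls and 12560843 to 20612206 in prolonged DKO libraries. The 8 epithelial markers summed to 8316 to 10304 CPM at the acute and 8446 to 9400 CPM at the prolonged time, and the endothelial markers to at most 10.9 CPM. The 12 immune markers summed to 376 to 1137 CPM at the acute and 266 to 825 CPM at the prolonged time, and the 12 stromal and muscle markers to 39.8 to 711 CPM acutely, highest in DKO, and 18.8 to 36.4 CPM later. On the first principal component acute DKO 3 and 4 scored 34.0 and 45.9, where the other acute libraries lay between -28.0 and 12.1. The paragraphs on acute results give values without acute DKO 3 and 4 for some genes.

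Genes were tested with limma on log2(CPM + 1) within each time, and a gene was called where the p adjusted over all tested genes (Benjamini-Hochberg) was under 0.05. At the acute time 2035 of 13601 genes, 15.0%, were called, 394 higher (2.90%) and 1641 lower (12.1%) in DKO. With composition-scaled CPM (TMM) the split was 701 higher and 1120 lower. At the prolonged time 1955 of 13316 genes, 14.7%, were called, 765 higher (5.74%) and 1190 lower (8.94%). Of the 10 members, 0 were higher and 2 lower at the acute time, and 1 was higher and 2 lower at the prolonged time. At an unadjusted p under 0.05 limma gave 0 higher and 5 lower acutely, and edgeR made the same number of calls as limma, 0 and 2 at the acute and 1 and 2 at the prolonged time. Their median log2 fold change was -0.25 at the acute time, beside -0.07 for all tested genes, and -0.11 beside 0.00 at the prolonged time. With composition-scaled CPM the acute medians were -0.16 for the members and 0.01 for all genes. Under that scaling the acute differences were -0.13 for Hes1, -0.14 for Notch2, -0.16 for Dll4, -0.16 for Gfi1, -0.17 for Jag1 and -0.19 for Atoh1. Counted by sign alone, 9 of 10 members were lower in acute DKO libraries, where 64.6% of all tested genes were lower without that scaling, and 7 of 10 in prolonged DKO libraries, where 49.6% were.

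**Figure D1:**
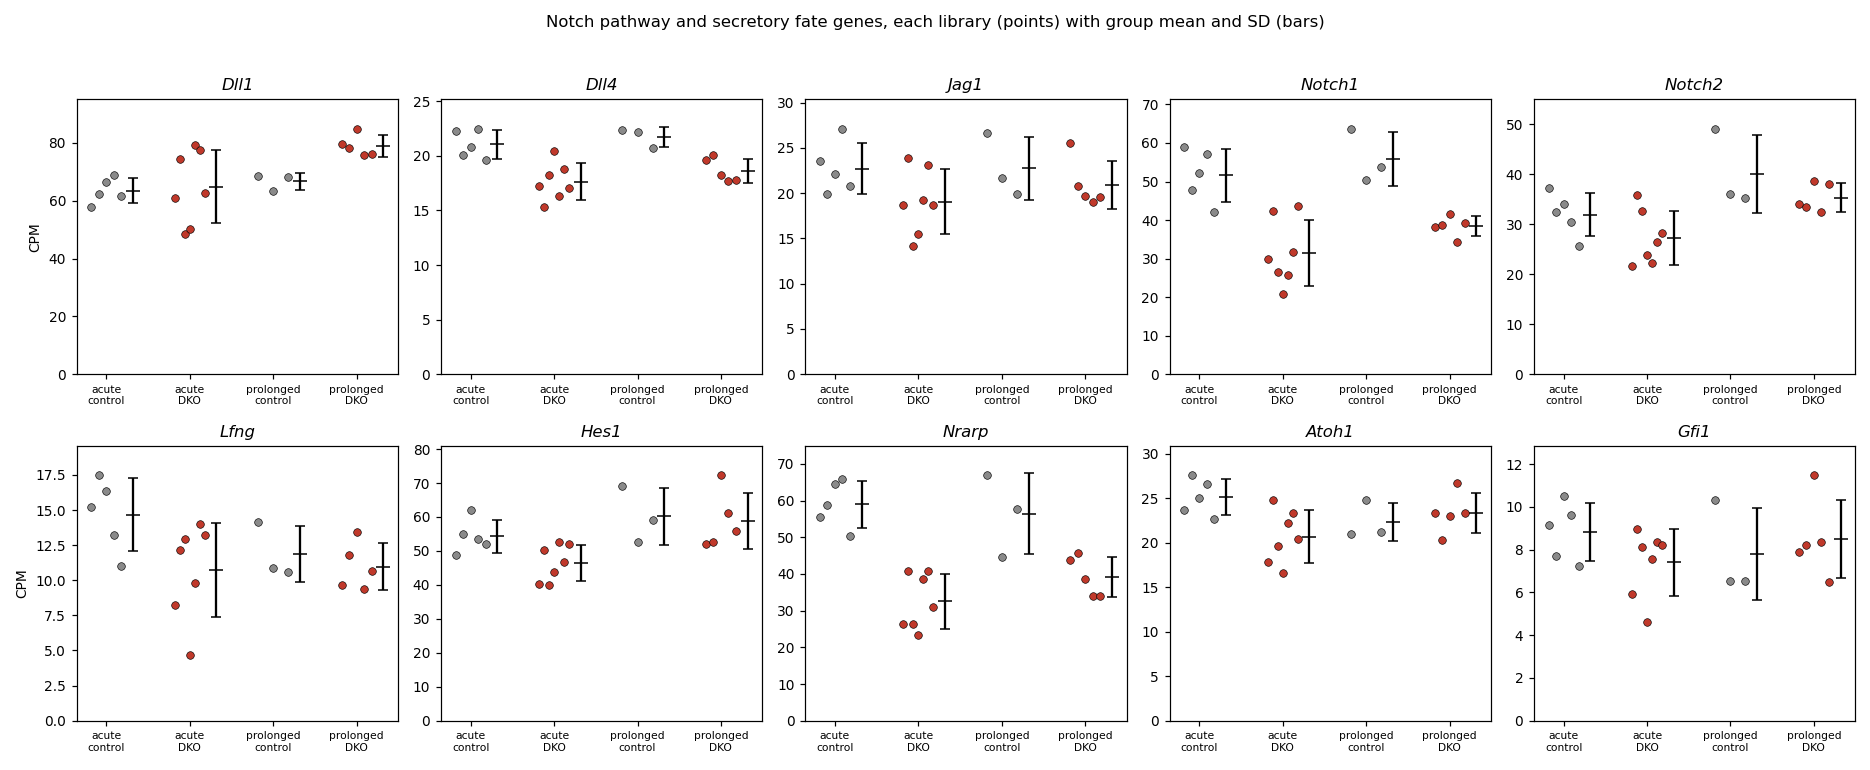
CPM of each of the 10 members in every library, by time and genotype; points are libraries, and the bar beside each group is its mean with 1 SD. Nrarp in acute DKO libraries (23.5 to 40.9 CPM) lies below all acute controls (50.4 to 66.0 CPM), and Dll1 in prolonged DKO libraries (75.8 to 84.8 CPM) above all prolonged controls.

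Among the receptors, Notch1, a receptor of crypt stem and progenitor cells, fell at both times. It measured 58.9, 47.9, 52.3, 57.2 and 42.0 CPM in the 5 acute controls. In the 7 acute DKO libraries it lay between 20.8 and 43.7 CPM with a median of 29.8 CPM. Acute DKO 2 and 7, at 42.4 and 43.7 CPM, were above the lowest control, and the other 5 DKO libraries were below every control. The log2 fold change was -0.73 ± 0.16 (SE, limma adjusted p = 0.00963), for which the mean fell by 38.9%, and -0.58 (adjusted p = 0.0180) without acute DKO 3 and 4. The prolonged controls measured 63.7, 50.3 and 53.8 CPM and the DKO libraries 38.3, 38.7, 41.7, 34.3 and 39.3 CPM. There the groups did not overlap, as for 11.7% of tested genes in the lower direction, and the log2 fold change was -0.52 ± 0.08 (limma adjusted p = 0.00180), for which the mean fell by 31.2%. Leaving out any 1 library kept both Notch1 calls.

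Notch2, a second receptor of crypt cells, did not pass the test at either time. Its acute controls spanned 25.7 to 37.3 CPM and its acute DKO libraries 21.6 to 35.8 CPM, with medians of 32.4 and 26.5 CPM. Its acute log2 fold change was -0.23 ± 0.13 (limma adjusted p = 0.259), with a 95% interval of -0.51 to 0.05. Prolonged controls measured 49.1, 36.0 and 35.2 CPM and overlapped the DKO libraries, which spanned 32.5 to 38.8 CPM. The prolonged difference was -0.16 ± 0.11 (limma adjusted p = 0.354).

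Of the other receptors, Notch4, best known from endothelial cells, was low but fell at both times. Acute controls spanned 5.26 to 6.15 CPM and acute DKO libraries 1.47 to 3.63 CPM, and prolonged controls 3.43 to 4.79 CPM against 1.42 to 2.54 CPM in DKO libraries. The groups did not overlap at either time, as for 6.55% (acute) and 11.7% (prolonged) of tested genes in the lower direction. The log2 fold changes were -1.0 ± 0.15 (limma adjusted p = 0.000791) and -0.77 ± 0.16 (limma adjusted p = 0.00663). Endothelial markers summed to 7.80 to 9.33 CPM in acute controls and 5.53 to 10.9 CPM in acute DKO libraries, and to 5.22 to 5.95 and 3.85 to 5.64 CPM at the prolonged time. Of the 11 markers measured acutely 7 averaged under 0.5 CPM in both groups, as did 5 of the 8 measured at the prolonged time. Of the 4 abundant enough to test, Esam, an endothelial adhesion molecule, was called lower at both times, at -0.57 ± 0.12 (limma adjusted p = 0.00619) and -0.60 ± 0.16 (limma adjusted p = 0.0231). The 4 did not move together. At each time 2 of them had a negative log2 fold change, and the highest was 0.34 acutely and 0.36 at the prolonged time. The part of endothelial cells in the Notch4 result was not tested. Notch3 did not pass, at 0.19 ± 0.18 and 0.17 ± 0.19 on the log2 scale.

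Of the ligands, Dll1, the Delta ligand of early secretory cells, rose at the prolonged time and did not differ detectably at the acute time. Prolonged controls measured 68.7, 63.3 and 68.2 CPM and prolonged DKO libraries 79.5, 78.4, 84.8, 75.8 and 76.1 CPM. Every DKO library was above every control, as for 8.82% of tested genes in the higher direction. The prolonged log2 fold change was 0.24 ± 0.06 (limma adjusted p = 0.0147), a mean 18.2% higher, and without prolonged control 2 it was 0.20 with an adjusted p of 0.0508. In acute controls Dll1 measured 57.8, 62.2, 66.5, 68.8 and 61.7 CPM, while the acute DKO libraries ranged from 48.5 to 79.1 CPM, on both sides of the controls. The acute difference was 0.01 ± 0.12 (limma adjusted p = 0.972), with a 95% interval of -0.25 to 0.27, which includes the prolonged value. Without acute DKO 3 and 4 it was 0.15 (limma adjusted p = 0.274).

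Dll4, a Delta ligand that acts with Dll1 in crypts, was lower in nearly every DKO library but did not pass the adjusted test. Acute controls measured 22.3, 20.1, 20.8, 22.5 and 19.6 CPM, and acute DKO libraries spanned 15.3 to 20.5 CPM with 6 of 7 below every control. On the log2 scale the acute difference was -0.25 ± 0.08 (limma adjusted p = 0.0526, exact permutation p = 0.00758). Without acute DKO 3 and 4 it was -0.30 with an adjusted p of 0.0282, and without acute DKO 4 alone the adjusted p was 0.0240. With composition-scaled CPM it was -0.16 with an adjusted p of 0.280. Prolonged controls, at 22.4, 22.2 and 20.7 CPM, lay above all DKO libraries (17.7 to 20.03 CPM), as for 11.7% of tested genes. That difference was -0.21 ± 0.08 (limma adjusted p = 0.0927), and its exact two-sided permutation p of 0.0357 is the smallest that 3 against 5 libraries allow.

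Jag1, a ligand of the Jagged family, did not pass at either time. Its acute controls spanned 19.9 to 27.1 CPM and its acute DKO libraries 14.1 to 23.8 CPM, a difference of -0.25 ± 0.13 (limma adjusted p = 0.204) that was -0.12 (adjusted p = 0.506) without acute DKO 3 and 4. Prolonged DKO 1, at 25.5 CPM, stood above the other DKO libraries, which lay between 19.1 and 20.8 CPM. The 3 prolonged controls measured 26.6, 21.7 and 19.9 CPM, and the difference was -0.11 ± 0.11 (limma adjusted p = 0.573). Its paralogue Jag2, at group means of 3.13 to 4.16 CPM, did not pass either, and Dll3 was under 1 CPM in every group mean.

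**Figure D2:**
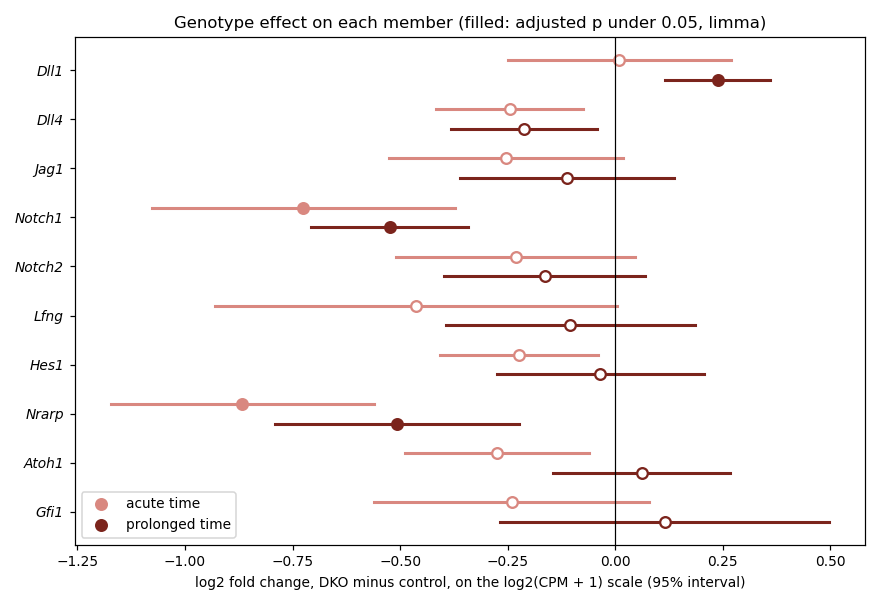
Log2 fold change of each member, DKO less control, in log2(CPM + 1) units, with its 95% interval, at the acute (light) and prolonged (dark) time; filled points have a limma adjusted p under 0.05. The filled points are Notch1 and Nrarp at both times, left of 0, and Dll1 at the prolonged time, right of 0.

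Lfng, a Fringe glycosyltransferase that changes which ligands a Notch receptor answers to, did not pass the test. Acute controls measured 15.2, 17.5, 16.4, 13.2 and 10.99 CPM. Acute DKO libraries spread from 4.71 to 14.01 CPM, with 3 of 7 below every control, and the lowest was acute DKO 4. The log2 fold change was -0.46 ± 0.22 (limma adjusted p = 0.177), and -0.33 (adjusted p = 0.192) without acute DKO 3 and 4. Prolonged controls spanned 10.6 to 14.1 CPM and DKO libraries 9.41 to 13.4 CPM, a difference of -0.10 ± 0.13 (limma adjusted p = 0.661).

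Rfng, another Fringe enzyme, fell at both times. Acute controls spanned 40.1 to 52.8 CPM and acute DKO libraries 26.4 to 32.6 CPM, and prolonged controls 41.8 to 46.0 CPM against 29.2 to 34.2 CPM. The groups did not overlap, as for 6.55% (acute) and 11.7% (prolonged) of tested genes in the lower direction. The log2 fold changes were -0.57 ± 0.08 (limma adjusted p = 0.000404) and -0.47 ± 0.08 (limma adjusted p = 0.00177). The third Fringe, Mfng, was at group means of 1.27 to 2.26 CPM and did not pass.

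Nrarp, a Notch target whose product limits Notch signalling as feedback, fell at both times. It measured 55.7, 58.7, 64.5, 66.0 and 50.4 CPM in acute controls and 26.4, 40.9, 26.2, 23.5, 38.6, 40.9 and 31.0 CPM in acute DKO libraries. All 7 DKO libraries lay below all controls, as for 6.55% of tested genes in the lower direction. The log2 fold change was -0.87 ± 0.14 (limma adjusted p = 0.00159, exact two-sided permutation p = 0.00253, the smallest this design allows), for which the mean fell by 44.95%, and -0.73 (adjusted p = 0.00217) without acute DKO 3 and 4. Prolonged controls measured 66.9, 44.8 and 57.7 CPM and prolonged DKO libraries 43.8, 45.7, 38.6, 34.0 and 34.0 CPM. There 4 of 5 DKO libraries lay below every control, and control 2 lay within the range of the DKO libraries. The prolonged log2 fold change was -0.51 ± 0.13 (limma adjusted p = 0.0221), and the call was lost without prolonged control 1 (adjusted p = 0.0898), control 3 (0.0891) or DKO 5 (0.0526).

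Hes1, the Notch target that represses Atoh1, did not pass the test at either time. Acute controls spanned 48.7 to 62.1 CPM with a median of 53.6 CPM, and acute DKO libraries 39.9 to 52.6 CPM with a median of 46.8 CPM. The acute log2 fold change was -0.22 ± 0.09 (limma adjusted p = 0.0968), and 4 of 7 DKO libraries lay below every control. Prolonged controls measured 69.0, 52.5 and 59.0 CPM and DKO libraries spanned 52.0 to 72.3 CPM. The prolonged difference was -0.03 ± 0.11 (limma adjusted p = 0.878), with a 95% interval of -0.28 to 0.21.

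Olfm4, a Notch-responsive gene of crypt base stem cells, fell at both times. Acute controls spanned 959 to 1416 CPM and acute DKO libraries 284 to 766 CPM, and prolonged controls 1208 to 1381 CPM against 664 to 866 CPM. The log2 fold changes were -1.04 ± 0.23 (limma adjusted p = 0.00862) and -0.79 ± 0.09 (limma adjusted p = 0.000137). The prolonged less the acute effect was 0.26, and -0.04 without acute DKO 3 and 4. The groups did not overlap at either time, as for 6.55% (acute) and 11.7% (prolonged) of tested genes in the lower direction. Hes5, another HES gene, stayed under 0.3 CPM in every group mean and was not tested. Among all tested genes, 12.1% acutely and 8.94% at the prolonged time were called lower. Of the 7 tested genes listed as Notch targets and feedback, 2 were called lower at each time, Nrarp and Olfm4. The other 5 were not called, and 4 acute and 3 prolonged genes of the 7 were lower at an unadjusted limma p under 0.05.

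Atoh1, the starter of the secretory programme, did not pass the test at either time. Acute controls measured 23.6, 27.6, 25.1, 26.6 and 22.7 CPM. Acute DKO libraries spanned 16.6 to 24.8 CPM, with 5 of 7 below every control. The log2 fold change was -0.28 ± 0.10 (limma adjusted p = 0.0796), and without acute DKO 2 the adjusted p was 0.0450. At the prolonged time controls spanned 20.9 to 24.8 CPM and DKO libraries 20.3 to 26.7 CPM, a difference of 0.06 ± 0.09 (limma adjusted p = 0.721).

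Gfi1, a repressor that acts downstream of Atoh1 to keep cells goblet or Paneth rather than enteroendocrine, did not pass either. Acute controls spanned 7.22 to 10.5 CPM and acute DKO libraries 4.62 to 8.96 CPM, a difference of -0.24 ± 0.15 (limma adjusted p = 0.314) that was -0.16 (adjusted p = 0.495) without acute DKO 3 and 4. At the prolonged time 2 of the 3 controls measured 6.53 and 6.56 CPM and the other 10.3 CPM, while the DKO libraries spanned 6.49 to 11.5 CPM. The difference was 0.12 ± 0.18 (limma adjusted p = 0.719). Gfi1b was at group means of 0.594 to 1.06 CPM and did not pass.

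Beside the falls of Notch1, Nrarp and Olfm4, markers of crypt cell types also moved. The 10 cycling crypt markers summed to 963 to 1348 CPM in acute controls and 612 to 871 CPM in acute DKO libraries, and to 1302 to 1588 against 955 to 1155 CPM at the prolonged time. All 10 were called lower at the acute time and 8 at the prolonged time. The 8 crypt base stem markers, which include Olfm4, summed to 1840 to 2437 against 703 to 1707 CPM and to 2071 to 2452 against 1501 to 1720 CPM, with 3 and 2 called lower. Olfm4 alone, among the called genes at both times, averaged 1193 against 605 CPM and 1311 against 761 CPM. Much of the difference in these sums is thus that of Olfm4. All 8 stem markers had a negative log2 fold change at both times. At an unadjusted limma p under 0.05, 8 were lower acutely and 5 at the prolonged time (6 and 5 with composition-scaled CPM). The 11 Paneth markers summed to 4631 to 9384 against 748 to 3979 CPM and to 7642 to 8431 against 1950 to 7361 CPM, with 9 and 7 called lower. In bulk libraries, fewer cells of a type and less RNA per cell cannot be told apart, and the part of these cell types in the results above was not tested.

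**Figure D3:**
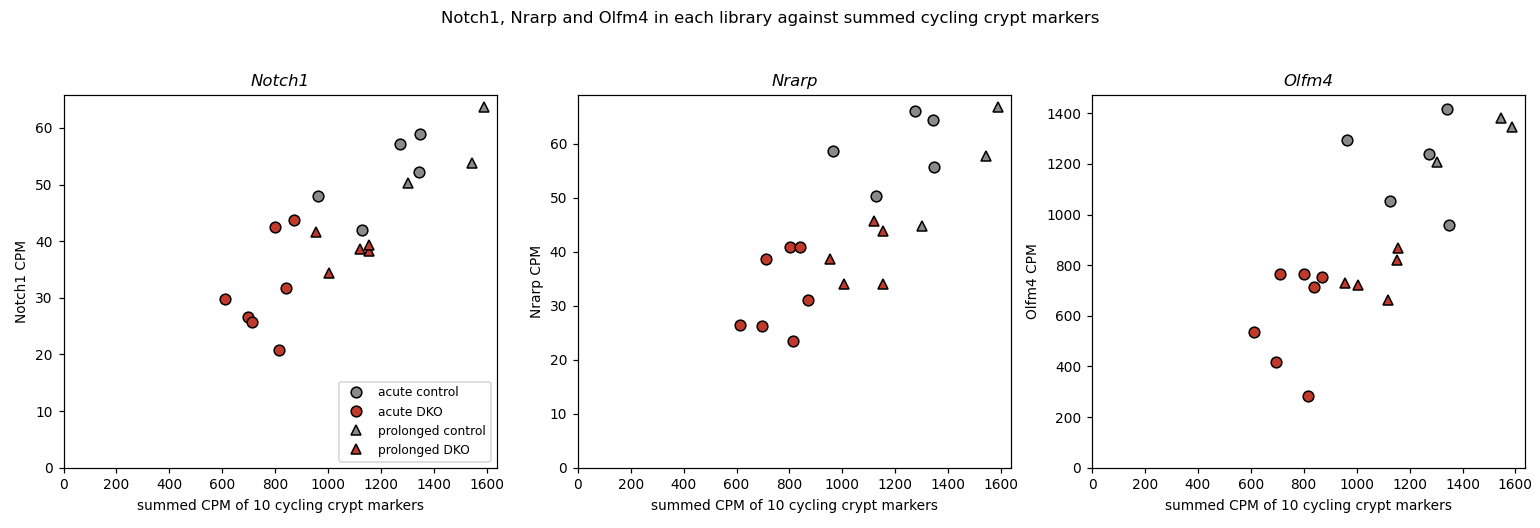
CPM of Notch1, Nrarp and Olfm4 (vertical axes) against the summed CPM of 10 cycling crypt markers (horizontal axes) in each library, circles acute and triangles prolonged, grey control and red DKO. Within each time the DKO libraries lie to the left of the controls (612 to 871 against 963 to 1348 CPM acute) and mostly below them.

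Markers of secretory types other than Paneth cells moved less evenly. Goblet markers summed to 6443 to 7637 CPM in acute controls and 6586 to 8124 CPM in acute DKO libraries, with 1 of 10 called higher and 2 lower. At the prolonged time they summed to 9407 to 10201 and 9659 to 10891 CPM, with 1 called higher and 3 lower. Enteroendocrine markers summed to 397 to 488 and 270 to 569 CPM acutely and to 482 to 566 and 372 to 551 CPM at the prolonged time. Of those 12 markers, 4 were called lower acutely, and 5 lower and 1 higher at the prolonged time. Enterocyte markers overlapped between genotypes, at 26879 to 40749 CPM in controls against 34336 to 46360 CPM in DKO libraries acutely. Of these 11 markers, 3 were called higher and 1 lower acutely, or 1 and 1 with composition-scaled CPM. The acute counts were 3 and 0 with edgeR and 5 and 1 with DESeq2, which also scale for composition. At the prolonged time they summed to 31592 to 43303 against 40921 to 45210 CPM, with 0 called higher and 1 lower (3 and 2 at an unadjusted limma p under 0.05, and 0 and 1 called by edgeR). Tuft markers summed to 115 to 245 CPM in controls against 96.02 to 175 CPM in DKO libraries acutely and 116 to 159 against 117 to 138 CPM at the prolonged time. Of the 7 tested, limma and edgeR called 0 acutely, also at an unadjusted p under 0.05, and limma called 1 lower at the prolonged time where edgeR called 0.

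The rest of the pathway was read from lists arranged by role. Over all 8 lists, which include the members, 9 of 76 tested genes were called lower and 0 higher acutely. At the prolonged time 7 of 77 were called lower and 1 higher. These counts are near the shares over all tested genes, of which 12.1% and 8.94% were called lower. Of the 8 tested genes for ADAM and gamma-secretase cleavage, limma and edgeR called 0 at either time, with 1 acute and 2 prolonged genes lower at an unadjusted limma p under 0.05. Of 5 genes for receptor glycosylation, Rfng alone was called. Of 13 genes for endocytosis and turnover of ligands and receptors, Neurl1b, which encodes a ubiquitin ligase of the Neuralized family, was called lower at the acute time, at -0.47 ± 0.15 (limma adjusted p = 0.0472), and 0 were called at the prolonged time by limma or edgeR (3 higher and 1 lower at an unadjusted limma p under 0.05). With composition-scaled CPM the acute list instead had 1 gene called higher and 0 lower. The Neurl1b call was lost in 9 of 12 leave-outs of 1 library, with acute DKO 3 and 4 left out (adjusted p = 0.0752) and with composition scaling. Of 13 genes of the nuclear complex and its co-repressors, 0 were called acutely by limma or edgeR, with 3 lower at an unadjusted limma p under 0.05. Maml3, a Mastermind co-activator, was called lower at the prolonged time, at -0.40 ± 0.10 (limma adjusted p = 0.0184), a call lost when prolonged control 1 was left out.

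Of 24 secretory fate regulators, 3 were called lower and 0 higher at the acute time, and 1 lower and 0 higher at the prolonged time. Of all tested genes, 12.1% and 8.94% were called lower. At an unadjusted limma p under 0.05, 7 were lower acutely and 3 at the prolonged time, with 0 higher, and edgeR called 3 and 2 lower and 0 higher. Bhlha15, which encodes MIST1, a factor that builds the secretory machinery of Paneth and other secretory cells, fell at both times. Its acute controls spanned 16.0 to 20.5 CPM and acute DKO libraries 8.65 to 14.1 CPM, and prolonged controls 17.2 to 19.4 CPM against 7.97 to 10.5 CPM. The log2 fold changes were -0.74 ± 0.11 (limma adjusted p = 0.00100) and -0.90 ± 0.11 (limma adjusted p = 0.000260). Foxa3, a forkhead factor, fell by 0.53 on the log2 scale at the acute time (SE 0.13, limma adjusted p = 0.0160). The call was lost with a block by animal number (-0.36, adjusted p = 0.0563), where acute control 5 and acute DKO 3 and 4 do not inform the effect. The prolonged difference of Foxa3, -0.30, did not pass (limma adjusted p = 0.0655) but did with composition-scaled CPM (0.0423). Cbfa2t3, a co-repressor also known as MTG16, fell by 0.55 (SE 0.15, limma adjusted p = 0.0225), a call lost without acute DKO 3 and 4 (adjusted p = 0.0591) or without acute control 2 or 3.

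**Figure D4:**
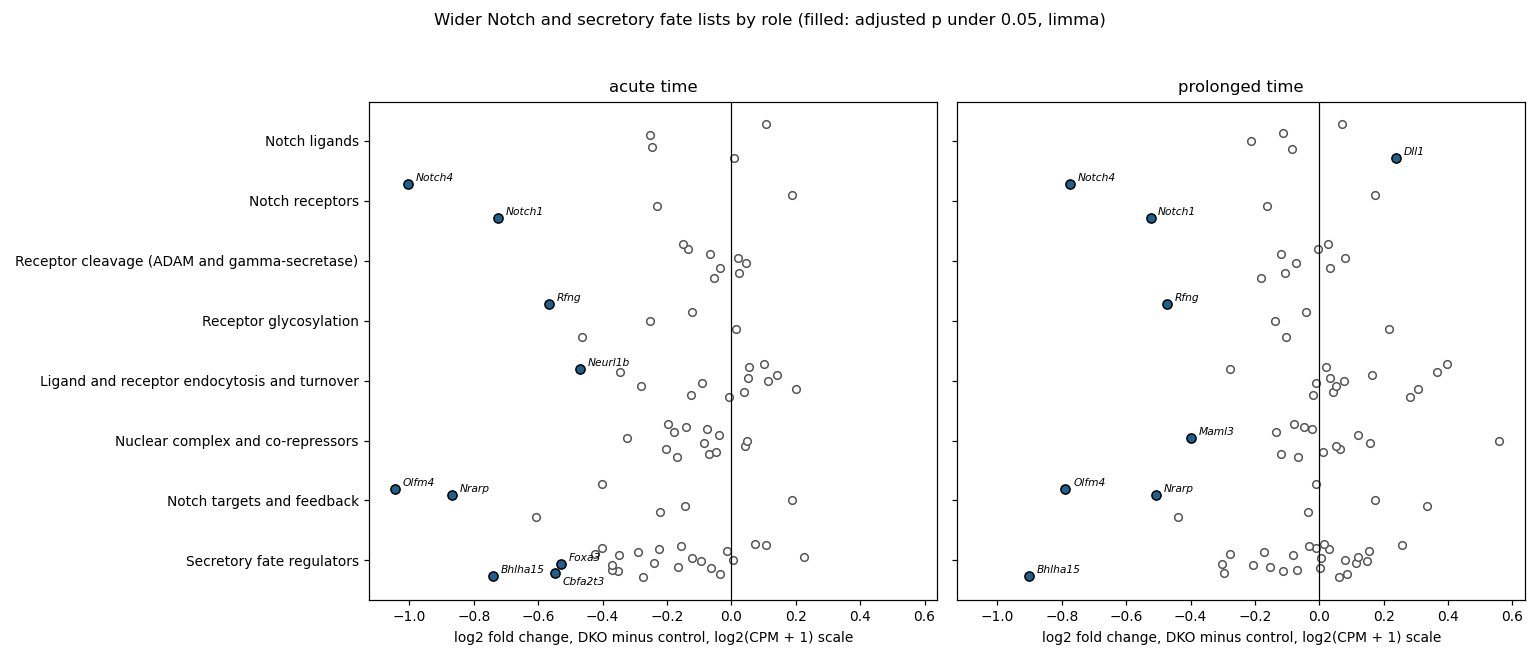
Log2 fold change, DKO less control, in log2(CPM + 1) units, of each tested gene of 8 lists arranged by role, acute (left) and prolonged (right); filled points have a limma adjusted p under 0.05. The named filled points lie left of 0 except Dll1 at the prolonged time, and the row of 8 cleavage genes has none.

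The genotype effects at both times were then set against each other. Over 13088 genes tested at both times, 5 (0.0382%) were called as different between times, all with a higher effect at the prolonged time, and 887 had an unadjusted p under 0.05. With 1 limma model or with edgeR the count was 0, with 608 and 494 genes at an unadjusted p under 0.05. Of the 10 members 0 were among the 5. Only 1, Atoh1, had an unadjusted p under 0.05, at 0.0210, for an effect 0.34 ± 0.14 higher at the prolonged time (adjusted p = 0.712), and the others had adjusted p of 0.712 to 0.938. The effect on Nrarp was 0.36 ± 0.19 less negative at the prolonged time, that on Notch1 0.20 ± 0.18, and that on Dll1 0.23 ± 0.13 higher. Without acute DKO 3 and 4 these differences were 0.22, 0.05 and 0.09, and that of Atoh1 was 0.27. So the passing of Dll1 at the prolonged time only was not shown to be a change between times.

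How members varied together between libraries of the same group was examined over 45 pairs, as deviations of log2(CPM + 1) from the group mean in 20 libraries. By permutation within groups, 8 pairs had an adjusted p under 0.05, all positive. Within the prolonged libraries alone 0 passed, and 28 of 45 pairs kept the sign they had over all 20 libraries. Atoh1 and Nrarp gave r = 0.92 (adjusted permutation p 0.0130) within the acute libraries and -0.82 (0.181) within the prolonged ones. Over all 20 libraries the highest correlation was that of Dll1 and Nrarp, with Pearson r = 0.82 and Spearman rho = 0.89 (permutation p adjusted over 45 pairs 0.00765 and 0.00495). It was 0.91 within the acute and 0.61 within the prolonged libraries, and 0.83 with the 2 farthest libraries left out. Gfi1 and Lfng gave r = 0.78 and rho = 0.73 (adjusted permutation p 0.00765 and 0.0195), falling to 0.62 (adjusted p 0.0957) with the 2 farthest left out. With composition-scaled CPM 0 pairs passed, and Dll1 with Nrarp was then at r = 0.71 (adjusted permutation p 0.0918). Atoh1 and Hes1 gave r = 0.33 and rho = 0.31 (adjusted permutation p 0.306 and 0.403). Notch1 and Nrarp, both lower in DKO libraries, gave r = 0.54 and rho = 0.49 (adjusted permutation p 0.164 and 0.189). As a description over 10339 genes, the genes most like Atoh1 in these deviations were Cnppd1 (r = 0.85), Anxa11 (0.85) and Wnt3 (0.83), and those most like Hes1 were Selenoo (0.86), Phpt1 (0.85) and Parl (0.84). The libraries share depth and composition, so such likeness is given without a test.

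The authors' deposited table gives log2 fold changes from DESeq2, scaled for composition. In the authors' deposited table Notch1 was at -0.62 ± 0.15 (adjusted p 0.000694) acutely and -0.53 ± 0.09 (adjusted p 4.41e-08) at the prolonged time. Nrarp was at -0.77 ± 0.12 (adjusted p 3.75e-08) and -0.51 ± 0.13 (adjusted p 0.00101) in the authors' deposited table, and Dll1 at 0.12 ± 0.11 (adjusted p 0.531) and 0.25 ± 0.06 (adjusted p 0.00120). For the other 7 members the authors' deposited table has adjusted p-values above 0.05 at both times, with Atoh1 at 0.112 and 0.773, Hes1 at 0.268 and 0.935, and Dll4 at 0.382 and 0.126.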

How the data were processed

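RNA levels were measured by poly(A) RNA-seq in 20 jejunal epithelium libraries. Per the submitters' processing notes, which give no roles, the tools were DESeq2, STAR, featureCounts 1.6.2, bedtools 2.27.1, SAMtools 1.9 and FastQC 0.11.5, with the mouse build mm9. The authors deposited 1 table per time with CPM per gene symbol and library, not scaled for composition. Per the file headers, each table also holds the authors' log2 fold change, its SE and an adjusted p-value, and 6 further columns were not used. In the acute table, 24 names had been turned into dates and 2 occurred more than once. No source used here says if strand was used in counting, so overlapping genes cannot be told apart.

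CPM are not counts, so limma 3.58.1 (R 4.3.3) with a mean-variance trend was fitted to log2(CPM + 1) at each time alone, on genes at 0.5 CPM or more in at least 5 acute or 3 prolonged libraries. Fold changes are in those units, which understate changes of low genes. For the difference between times, the fold changes were subtracted and divided by their combined SE. CPM were whole multiples of a step per library, so whole reads were recovered (weaker evidence for prolonged control 3) and tested with edgeR 4.0.16 and DESeq2 1.42.0 as alternatives. Permutation tests were two-sided, with 100000 resamples for correlations.

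The members and lists were chosen with earlier results of these data known. Named genes are the members, both targeted genes, all called genes of the lists, and paralogues of members, with the 3 genes most like Atoh1 and Hes1. The limma p-values weigh each difference against the spread between these libraries. The files' build differs from GRCm38.p6, so only promoter positions of the latter are given.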

Additional observations from a re-analysis of the deposited data

Results flagged for a closer look

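The 10 members gave 30 groups of 4 to 10 libraries that were examined for a stray library. Of these, 1 was marked, and chance marks about 1 in 20. It was Jag1 in the prolonged DKO group, where DKO 1 measured 25.5 CPM and the nearest other library 20.8 CPM. The gap was 0.734 of the group's range, above the critical value of 0.71.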

How the results depend on the processing

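Over the 10 members at both times and in the difference between times, 260 values under alternative settings left 250 with their direction and call, 2 lost a call, 2 gained one and 6 changed sign. Notch1 and acute Nrarp kept their calls under every alternative run. Control and DKO libraries with the same replicate number correlated at -0.20 to 0.20 (acute) and -0.24 to -0.16 (prolonged) in deviations from group means. These values show no pairing by number, but with groups of 3 to 7 libraries they cannot exclude it. A fit with the replicate block called 947 acute and 528 prolonged genes, 0 in the difference between times and 1 member at the prolonged time. Acute DKO 6 and 7 and prolonged DKO 4 and 5 shared no number with a control, so they did not inform its genotype effects. With the replicate block prolonged Dll1 was at 0.27 (limma adjusted p = 0.0878) and prolonged Nrarp at -0.38 (0.188), both no longer called, as were prolonged Notch4 (-0.83, 0.0824) and Maml3 (-0.38, 0.170) and acute Neurl1b (-0.55, 0.0568). Signs changed with the replicate block for prolonged Atoh1 (-0.0048), acute Dll1 (-0.04), acute Mfng (-0.05), and in the difference between times for Maml3 (0.01) and Jag2 (0.05). The difference between times changed sign for Dll4 with composition-scaled CPM (-0.05) and edgeR (-0.06), for Notch2 likewise (-0.02 and -0.04), and for Olfm4 without acute DKO 3 and 4 (-0.04), where acute Gfi1b was at 0.02. A block by animal number called 1419 acute genes. Acute control 5, and acute DKO 3 and 4, fell in blocks without a library of the other genotype. They therefore did not inform its genotype effects, and for acute DKO 3 and 4 genotype and animal block cannot be told apart. With the animal-number block acute Dll4 was called (-0.33, limma adjusted p = 0.0363), and acute Foxa3 (-0.36, 0.0563), Cbfa2t3 (-0.49, 0.0571) and Neurl1b (-0.18, 0.241) were not. The number of genes called in the difference was 9 with no filter and 0 with 1 limma model or edgeR. Of the member pairs, 6 correlated within the acute libraries, 5 of them among the 8 that passed over all libraries. None, 0, passed within the prolonged libraries or with composition-scaled CPM, and 1 with the 2 farthest libraries left out. Without acute DKO 3 and 4, 6 passed, of which 3 were among those 8. The cause of these changes was not tested.

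Leaving out 1 library at a time gave 1237 to 2185 genes called at the acute time (fewest without control 3), 1052 to 1724 at the prolonged time (fewest without control 3) and 0 to 10 in the difference, with 2 to 3 members called at either time. Ranges that crossed 0 were those of acute Dll1 (-0.04 to 0.07, and 0.15 without both acute DKO 3 and 4) and Mfng (-0.09 to 0.12), of prolonged Jag1 (-0.20 to 0.0025), Hes1 (-0.13 to 0.07), Lfng (-0.17 to 0.02), Dll3 (-0.17 to 0.04) and Jag2 (-0.03 to 0.20), and in the difference of Dll4 (-0.0014 to 0.07), Notch2 (-0.02 to 0.22), Kdm6a (-0.05 to 0.06), Maml3 (-0.19 to 0.02, and -0.26 without both), Jag2 (-0.13 to 0.09) and Notch3 (-0.15 to 0.19). Calls were lost in at least 1 such fit for prolonged Dll1 (0.20 to 0.26), Nrarp (-0.66 to -0.38) and Maml3 (-0.45 to -0.31) and for acute Neurl1b (-0.55 to -0.37) and Cbfa2t3 (-0.64 to -0.46), and gained in 1 fit each for acute Atoh1 (-0.32 to -0.23) and Dll4 (-0.28 to -0.21) and for prolonged Neurl1b (-0.34 to -0.18). Olfm4 in the difference reached 0.33. Depth limits the genes near 1 CPM, such as Gfi1b and Dll3. Only 3 prolonged controls limit the precision at that time.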
